A study of Cornus officinalis with 7 samples.

Results

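The 200 unigenes described here are the most abundant transcripts of *Cornus officinalis* that were preferred by the inflorescence, out of 304371 unigenes in the *de novo* assembly. The members were selected on their FPKM, a fragment count divided by transcript length and library size. A unigene was kept when its FPKM in each of young leaf, mature leaf, young stem, pericarp and seed was below 10% of its inflorescence FPKM, and the 200 with the highest inflorescence FPKM were taken. Mature stem was not used in this choice. The 7 tissues sequenced were inflorescence, seed, pericarp, and the leaf and the stem at a young and a mature stage, with 1 strand-specific library for each. All tissues carry the same plant material label, an age of 12 years and no treatment, and were harvested from natural growth in a medicinal garden. The inflorescence was sequenced whole, so the values are an average over all its organs. Fewer cells of a type and less RNA per cell cannot be told apart in such a library.

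The inflorescence of *C. officinalis* is a small umbel of yellow flowers that opens before the leaves. It brings together bracts, sepals, petals, stamens and pistils, and in Arabidopsis the anther and its pollen are known for transcripts that are scarcely found in vegetative organs. The assembly has no reference genome behind it here, and enzyme names from sequence similarity were read for 549 unigenes of the triterpenoid, iridoid and gallotannin pathways and of the cytochrome P450 family. No floral marker gene is among them, so the tissue label was not checked against markers, and most of the 200 unigenes are given here by identifier only. The wider annotation of the assembly was not used here.

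The FPKM sum was 943613 for inflorescence and lay in the range 876794 to 992186 over all 7 libraries. The absolute depth is unknown. Relative depth was read from the most frequent FPKM ratio among unigenes above 0 in inflorescence and only 1 other library. By this ratio, 1 fragment was worth 1.19 times as much FPKM in inflorescence as in pericarp and 1.74 times as in young stem. The other tissues of the rule lay between. Inflorescence was thus read as the shallowest of the 6 libraries of the rule, though the modal bin for pericarp held only 11.5% of the unigenes compared. Mature stem stands apart from all of them: of the 3373 unigenes with an inflorescence FPKM of at least 42.41, the lowest value among the 200, only 13 reached 10% of that value in mature stem. With 1 library per tissue there is no replicate check, and no p-value or error is given for any difference between tissues.

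The 10-fold preference was met by 9182 unigenes, 7.25% of the 126561 with an FPKM above 0 in inflorescence and 3.02% of all unigenes. Among the 3373 unigenes at or above 42.41 FPKM it was met by 5.93%, which are the 200. These shares follow from the rule itself and are given as a description. Of the 9182, 970 reached an FPKM of 10 in inflorescence, 90 reached 100 and 5 reached 1000. The selection ended at Unigene029372 with 42.41 FPKM, and the next unigene in order was Unigene078310 with 42.36.

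The most abundant transcript of the whole inflorescence library was one of the 200. Unigene224388 had an FPKM of 11196 in inflorescence, against 2.15 in young leaf, 0.49 in young stem, 0.47 in mature stem and 0 in mature leaf, pericarp and seed. Unigene267164 had 6776 and Unigene267163 had 4327 in inflorescence, and both were listed at 0 in all other 6 tissues. Both were among the 10 highest unigenes of the inflorescence. The fourth, Unigene173176, had 1972 in inflorescence, against 13.8 in mature leaf, 4.17 in seed and 0 in young leaf, young stem, pericarp and mature stem. The fifth, Unigene298846, had 1159 in inflorescence, against 45.95 in mature leaf, 14.54 in pericarp, 5.67 in young leaf, 2.32 in seed, 1.25 in young stem and 0 in mature stem. It was the highest of the 200 in mature leaf.

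The next 7 ranged from 854 FPKM in inflorescence for Unigene224727 to 715.9 for Unigene222057, which is annotated as a cytochrome P450. Their traces elsewhere differed in kind. Unigene079844 had 798.7 in inflorescence and was listed at 0 in all other tissues. Unigene140256 had 784.78 in inflorescence and stayed at or below 0.45 in every other tissue. Unigene027161, in contrast, had 779.7 in inflorescence and was measured in young stem at 26.96, young leaf at 22.06, mature leaf at 16.96, seed at 5.80 and pericarp at 5. Unigene288203 was also measured in all 5 other tissues of the rule, with 730.04 in inflorescence, 16.63 in young stem and 8.98 in young leaf, while seed had 6.52, pericarp 2.24 and mature leaf 1.52. Young stem and young leaf came next after inflorescence in both, and mature leaf was lowest of the 5 only in Unigene288203. Unigene224727 had 14.84 in young stem and Unigene112721, with 791.14 in inflorescence, had 3.31 there.

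**Figure D1:**
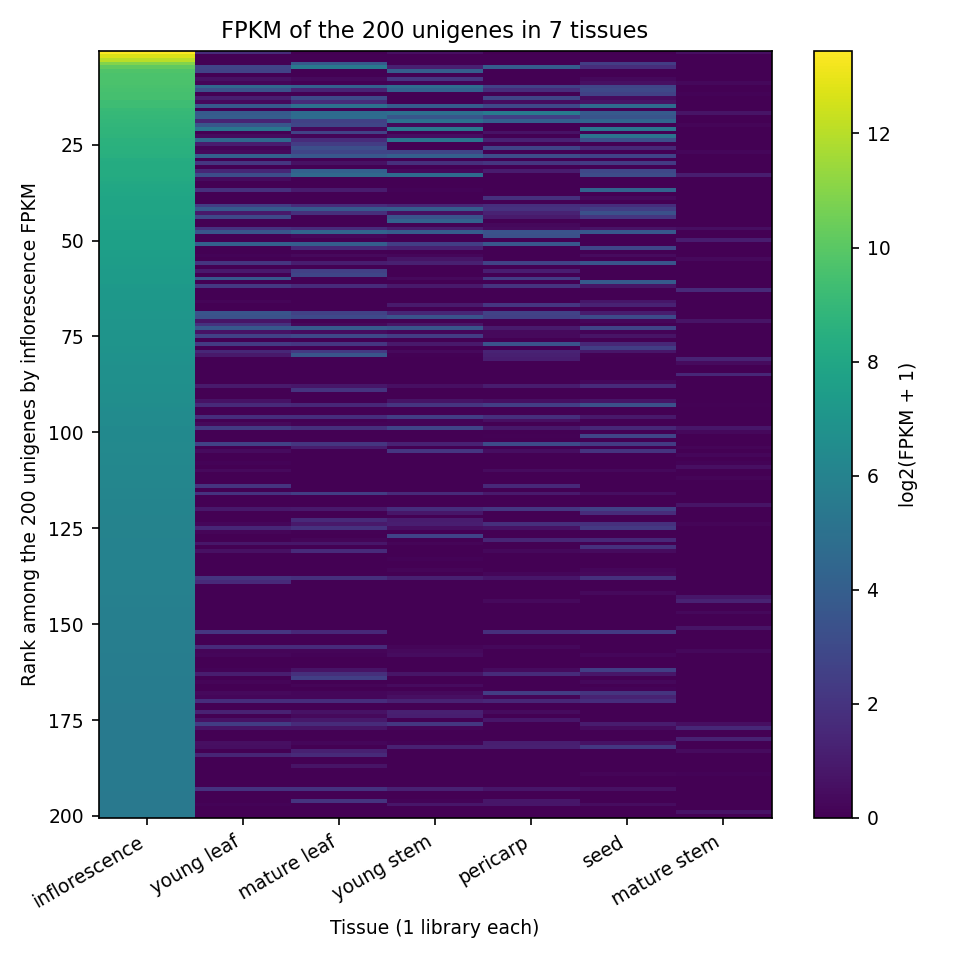
Expression as log2(FPKM + 1) of the 200 unigenes (rows, by inflorescence rank) in 7 tissues (columns, 1 library each). The inflorescence column runs from 11196 FPKM at the top to 42.41 at the bottom, the columns of the 5 other tissues of the rule hold scattered low values, and mature stem does not exceed 2.07.

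Together the 200 unigenes held 5.94% of the summed inflorescence FPKM. Their sum was 56083 FPKM in inflorescence, against 438.7 in mature leaf, 420.7 in young stem, 377.4 in seed, 372.1 in young leaf and 251.3 in pericarp. The highest 3 supplied 39.8% of the inflorescence sum of the 200, and the highest 10 supplied 52.5%. Without the highest 3, the share of the library was 3.58%. The median of the 200 was 83.35 FPKM in inflorescence, with quartiles at 54.89 and 199.6. Abundance in this library came mostly from unigenes outside the set: the 200 highest unigenes of the inflorescence held 19.4% of its sum, and 28 of them belonged to the 200 preferred ones.

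The steepness of each unigene, its inflorescence FPKM over the highest FPKM in the 5 other tissues, spread from 10.3 to 5207. The rule sets the lower end. In 75 of the 200 (37.5%) all 5 tissues were listed at 0, so that no ratio could be formed, and in another 33 the highest other value was below 1% of the inflorescence value. The remaining 92 lay between 1% and 10%, of which 39 were at 5% or above. Over the 125 with a finite ratio the median was 31.9, with quartiles at 15.8 and 106. Ranking the unigenes listed at 0 above all others, the median of the 200 was 181, and it was 105 when the young stem library was left out of the rule and the 200 chosen again. Because an estimate that failed may equally appear as 0, such unigenes are called listed at 0 here and not absent.

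The steepest finite profiles were those of Unigene224388 with a ratio of 5207, Unigene140256 with 1744 and Unigene258587 with 1017. Unigene258587 had 213.63 in inflorescence, against 0.21 in pericarp and 0.05 in young stem. Unigene258586, the identifier before it, followed with a ratio of 981, from 294.34 in inflorescence and 0.30 in young leaf. Unigene128200 had 75.39 in inflorescence and 0.11 in young leaf, a ratio of 685. In each of these 5 the value in the second tissue was 2.15 FPKM or less, so the ratio rests on a trace and moves with any constant added to it.

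At the other end, 5 unigenes lay just inside the 10% limit. Unigene195704 had 392.19 in inflorescence and 38.18 in young stem, or 9.74%. Unigene143145 had 128.68 in inflorescence with 12.49 in mature leaf and 12.16 in young leaf, and Unigene082501 had 202.72 with 19.67 in mature leaf. Both were measured in all 5 other tissues. Unigene220359 had 46.05 in inflorescence and 4.41 in young leaf, and Unigene082803 had 49.89 in inflorescence and 4.68 in mature leaf. Just outside were Unigene139730, with 101.64 in inflorescence and 10.3 in pericarp, and Unigene239245, with 95.52 in inflorescence and 9.68 in mature leaf, at 10.1% each. Unigene013912 and Unigene260471 stood at 10.2% and Unigene284676 at 10.7%. These unigenes were chosen as the closest to the limit on either side. How the ratios are distributed across the limit was not counted.

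**Figure D2:**
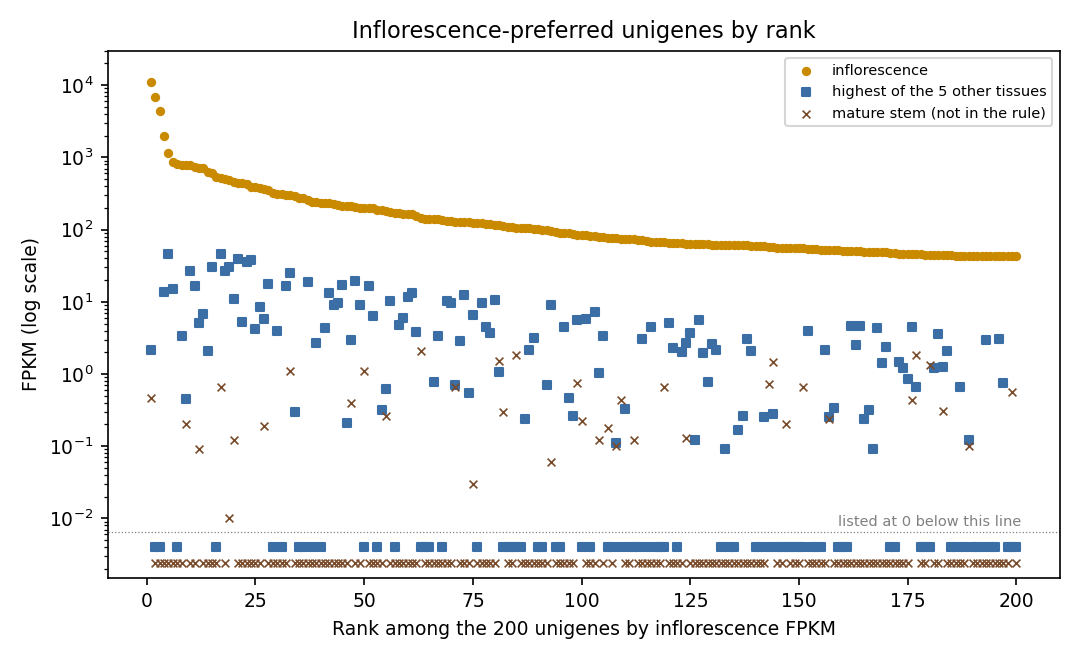
FPKM on a log axis of the 200 unigenes by inflorescence rank, with inflorescence as circles, the highest of young leaf, mature leaf, young stem, pericarp and seed as squares, and mature stem as crosses. Symbols under the dotted line are listed at 0, which holds for the squares of 75 unigenes and the crosses of 162.

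Whether a unigene was listed at 0 elsewhere varied with its rank. All 5 other tissues were at 0 for 4 of the first 20, 7 of the next 30, 17 of ranks 51 to 100 and 47 of ranks 101 to 200. Among all 9182 unigenes that met the rule this held for 8537 (93.0%). A lower inflorescence FPKM leaves a 10% trace closer to the detection limit, and the part of this in the trend was not tested. The median finite ratio was 50.7 in the first 20, 22.9 in the next 30, 32.6 in ranks 51 to 100 and 31.7 in ranks 101 to 200.

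Breadth of the low values also differed between unigenes. Of the 200, 42 had an FPKM above 0 in all 5 other tissues, 23 in 4, 15 in 3, 22 in 2 and 23 in only 1. The 42 broad ones had a median ratio of 19.0, and the 23 measured in 1 other tissue had a median of 77.6. The ratio divides by the highest of the 5 values, which tends to rise as more of them are above 0. This difference is thus partly built in. An even low level was seen for Unigene034084, with 48.44 in inflorescence and between 1.40 in young stem and 2.40 in young leaf elsewhere. The most uneven broad profile was that of Unigene082453, with 114.93 in inflorescence, 10.64 in mature leaf and 0.05 in young stem. Both were named after their values were seen. Of the 23 measured in a single other tissue, this was seed for 8, mature leaf for 6, young stem for 4, young leaf for 3 and pericarp for 2. Neither this split nor the breadth was counted over all unigenes that met the rule. The libraries were also read as differing in depth. By the most frequent ratio, 1 fragment in inflorescence was worth 1.74 times that in young stem. It was worth 1.64 times that in seed and 1.19 times that in pericarp. The part of depth in these counts was not tested.

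The level of the low values differed too, within the bound that the rule sets. In 27 of the 200 at least 1 of the 5 other tissues reached an FPKM of 10, in 94 at least 1 reached 1, and in 31 the highest was above 0 but below 1. Under the rule, only the 90 with at least 100 FPKM in inflorescence could reach 10 in those tissues, so these counts are a description. Unigene262562 had the highest pericarp value of the 200, at 45.58, beside 518.47 in inflorescence, 29.47 in young stem and 25.06 in mature leaf. Unigene027582 had 448.68 in inflorescence and near-equal values of 39.56 in young stem, 36.88 in young leaf and 36.49 in seed, with 0.27 in mature leaf and 0 in pericarp. It was the highest of the 200 in each of young stem, young leaf and seed, and was also named after its values were seen.

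The second tissue, which is the highest of the 5 after inflorescence, was seed for 33 of the 125 unigenes that had one, mature leaf for 32, young leaf for 24, young stem for 22 and pericarp for 14. These counts are 26.4%, 25.6%, 19.2%, 17.6% and 11.2% of the 125. Among the 641 unigenes of any level that met the rule and had a single second tissue, the 125 included, the shares were 26.8% for seed, 19.7% for mature leaf, 16.8% for young leaf, 22.3% for young stem and 14.4% for pericarp. The order of seed and mature leaf is not firm. With libraries scaled by the median of ratios over 5988 unigenes of at least 10 FPKM in 6 tissues, mature leaf led with 35 against 30 for seed, and counting only second tissues of at least 1 FPKM it led with 29 against 22. When the young stem library was left out of the rule, young leaf led with 44. Pericarp was second for 25 unigenes without the mature leaf library, 24 without the seed library and 9 with second tissues of at least 1 FPKM. The highest unigenes with each second tissue were Unigene224388 for young leaf, Unigene173176 for mature leaf, Unigene224727 for young stem, Unigene262562 for pericarp and Unigene140256 for seed.

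**Figure D3:**
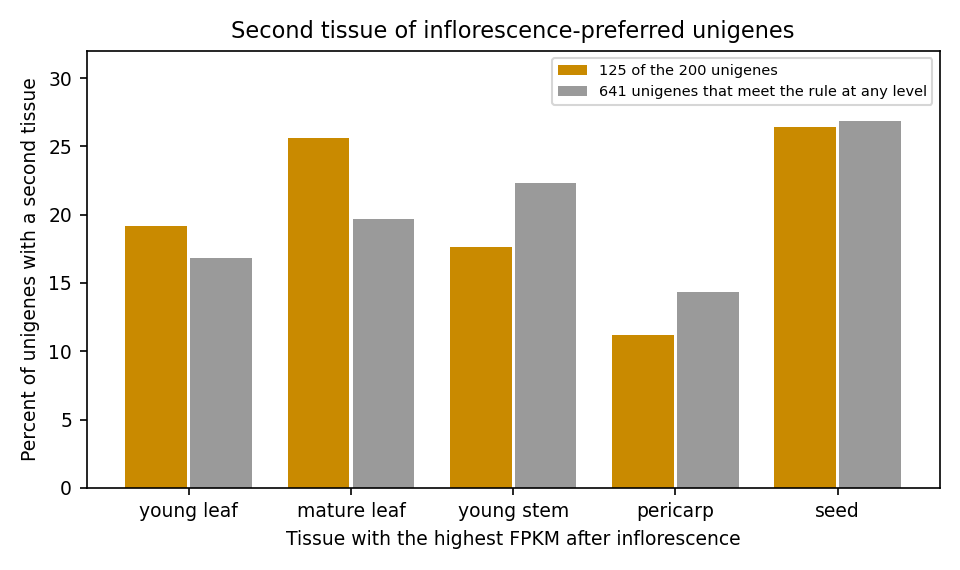
Share of unigenes (percent, y axis from 0) by the tissue with the highest FPKM after inflorescence, for 125 of the 200 unigenes (left bars) and for 641 unigenes that met the rule at any level (right bars). Seed takes 26.4% and 26.8%, and mature leaf 25.6% and 19.7%.

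Mature stem, the tissue that the rule did not use, was also low throughout the set. Its library listed 70055 unigenes above 0, against 126561 in inflorescence. By the most frequent ratio, 1 fragment in inflorescence was worth 0.80 times that in mature stem, though the modal bin held only 6.70% of the unigenes compared. Of the 200, 162 (81%) were listed at 0 in mature stem. This share was 49.6% over the 3373 unigenes of at least 42.41 FPKM in inflorescence and 93.8% over all unigenes above 0 there, most of which are of low abundance. In the other 38 the mature stem FPKM lay between 0.01 and 2.07, with a median of 0.355. For the 1661 other unigenes at or above 42.41 FPKM that were above 0 in mature stem, the median was 0.27. All 200 unigenes were below 10% of their inflorescence value in mature stem, which held for 99.6% of the 3373 and for 98.4% of all unigenes above 0 in inflorescence. A mature stem value under this limit was therefore near the background and says little about these 200.

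The highest mature stem values were found for Unigene255503, with 142.95 in inflorescence and 2.07 in mature stem, and Unigene183235, with 106.68 and 1.86 in the same order. Both were listed at 0 in the other 5 tissues, so mature stem was the only further library in which they were measured. Unigene074920 had 45.57 in inflorescence and 1.82 in mature stem, or 3.99%, the largest proportion in the set. Unigene081732 had 114.67 in inflorescence, 1.51 in mature stem and 1.08 in pericarp, and Unigene029745 had 56.47 in inflorescence, 1.45 in mature stem and 0.28 in pericarp. In 17 of the 200, mature stem exceeded every one of the 5 other tissues, and 14 of the 17 were at 0 in all 5. Of the 75 unigenes at 0 in those tissues, 14 (18.7%) were above 0 in mature stem, as were 24 (19.2%) of the 125 others. That leaves 61 unigenes measured in inflorescence alone. Neither the 17 nor the 61 has a matching count over all unigenes, so whether they are unusual is not known.

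Further down in abundance, some of the passing unigenes were higher in mature stem. Of the 9182, 428 (4.66%) had a higher FPKM in mature stem than in inflorescence. Of these, 331 were among the 1353 with less than 1 FPKM in inflorescence, or 24.5% of the 1353. The same share over all unigenes above 0 in inflorescence was not counted, so whether these shares are unusual is not known. Of the 970 with at least 10 FPKM in inflorescence, 1 was higher in mature stem. With mature stem added to the rule, 8671 unigenes passed and the same 200 were chosen.

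Cytochrome P450s are heme enzymes that add oxygen to a wide range of plant metabolites. The filtered list of 262 unigenes of this family supplied 5 of the 200 (1.91% of the list). Over all unigenes the 200 make up 0.0657%, and over the 85040 unigenes of at least 5 FPKM in any tissue 0.235%. The authors filtered the list on such an FPKM and also on length, which was not matched in these backgrounds. P450s left out of the list were not counted, so 5 is not the number of all P450s in the set. Unigene222057 had 715.9 in inflorescence, against 5.11 in seed, 0.09 in mature stem and 0 in young leaf, mature leaf, young stem and pericarp. Unigene304082 had 244.38 in inflorescence and was listed at 0 everywhere else. Unigene077317 had 184.73 in inflorescence and at most 0.32, in seed, in any other tissue. These 3 P450s stood at ranks 65, 325 and 488 of the inflorescence library. Unigene141675 followed with 62.63 in inflorescence and at most 0.12, in young leaf, and Unigene035952 with 61.07 in inflorescence and at most 0.17, in seed. In all 5 the highest value in the other tissues of the rule was below 1% of the inflorescence value. This held for 108 of the 200, and the rule itself keeps such values low.

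At any level, 14 of the 262 P450s (5.34%) met the rule, beside 3.84% of the same 85040 unigenes, which again carry no length filter. In 3 of the 14 the inflorescence FPKM was only 0.07 to 0.08, while mature stem had 71.32 (Unigene223679), 26.01 (Unigene245338) and 18.48 (Unigene079118). With mature stem added to the rule, 11 P450s (4.20%) remained, beside 3.47% of the same background. The other 6 P450s of the list that passed lay below the 200, between 6.55 FPKM in inflorescence for Unigene092953 and 36.4 for Unigene300808. Unigene092953 and the 3 P450s high in mature stem were named after their values were seen.

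Of the 182 triterpenoid unigenes, 1 (0.549%) was among the 200: Unigene228267, annotated as AO, an enzyme that oxidizes the amyrin skeleton, had 60.1 in inflorescence, 2.07 in young leaf and 0 in the other 5 tissues. The amyrin synthase Unigene163902 also met the rule, with 0.97 in inflorescence and 0 elsewhere, so 2 of 182 passed (1.10%). Of the 83 iridoid unigenes, 1 passed (1.20%): Unigene278905, annotated as geraniol 10-hydroxylase, an early P450 of the iridoid route, had 11.92 in inflorescence and 0 elsewhere. None of the 37 gallotannin unigenes passed. Over all unigenes the share that passed was 3.02%, and the 200 make up 0.0657%. These lists hold unigenes annotated by sequence similarity, which the paper narrowed further by co-expression. Whether Unigene228267 or Unigene278905 is among its narrowed candidates was not checked.

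The identifiers of the 200 held a few runs of adjacent numbers. In 28 of the 200 (14%) the number before or after belonged to the set as well, and these formed 11 runs, of which 9 had 2 unigenes, 1 had 3 and 1 had 7. Among the 3373 unigenes of at least 42.41 FPKM, 12.7% had an adjacent number that was also among the 3373. That set is larger, so its share is not on equal terms with that of the 200. In 48 of the 200 (24%) an adjacent number met the rule, whether or not it was among the 200. This held for 11.5% of the 9182 unigenes that met the rule, 6.31% of the 3373 of at least 42.41 FPKM and 5.89% of all unigenes. The share was thus higher in the 200 than in each of these, which is given with no test. The runs held 31.1% of the inflorescence sum of the 200. What the order of identifiers stands for is not given in the sources used here. Whether neighbours are copies, isoforms or parts of 1 transcript was not tested, and RSEM divides reads between similar unigenes.

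Unigene267163 and Unigene267164 formed the most abundant run, with 11103 FPKM in inflorescence and 0 in all other tissues. The run of 7, from Unigene298840 to Unigene298846, had 3753 in inflorescence, against 79.7 in mature leaf, 35.29 in pericarp, 24.56 in young leaf, 5.83 in young stem, 3.63 in seed and 0 in mature stem. Mature leaf was the second tissue of all but Unigene298843 and Unigene298840, which had 16.32 in young leaf. The levels differed between the unigenes of the run. In inflorescence they had 199.59, 437.19, 391.54, 237.39, 618.58, 709.52 and 1158.93 in the order of their numbers. In mature leaf they had 15.45, 5.23, 4.23, 0, 2.06, 6.78 and 45.95. Unigene298843 was the only one of the 7 at 0 in mature leaf, and its second tissue was pericarp, at 2.67. The numbers on both sides of the run were low in inflorescence, with 5.55 for Unigene298839 and 7.44 for Unigene298847.

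A different neighbourhood was that of Unigene173176, with 1972 FPKM in inflorescence, and Unigene173178, with 423.98 in inflorescence and 35.41 in seed. Between them in number stands Unigene173177, which had 294.77 in inflorescence, 808.05 in pericarp, 322.83 in seed, 297.91 in young leaf, 292.97 in young stem, 148.62 in mature leaf and 0 in mature stem. Unigene173177 was thus above 100 FPKM in all 6 tissues other than mature stem. Unigene173176 and Unigene173178 are among the 200, so the rule itself kept their values low in the other tissues it used. The contrast with Unigene173177 is therefore partly built in. These neighbours were chosen after their values were seen. Of the 362 adjacent unigenes that were not among the 200, 28 (7.73%) met the rule, beside 3.02% of all unigenes, and 173 were listed at 0 in inflorescence.

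**Figure D4:**
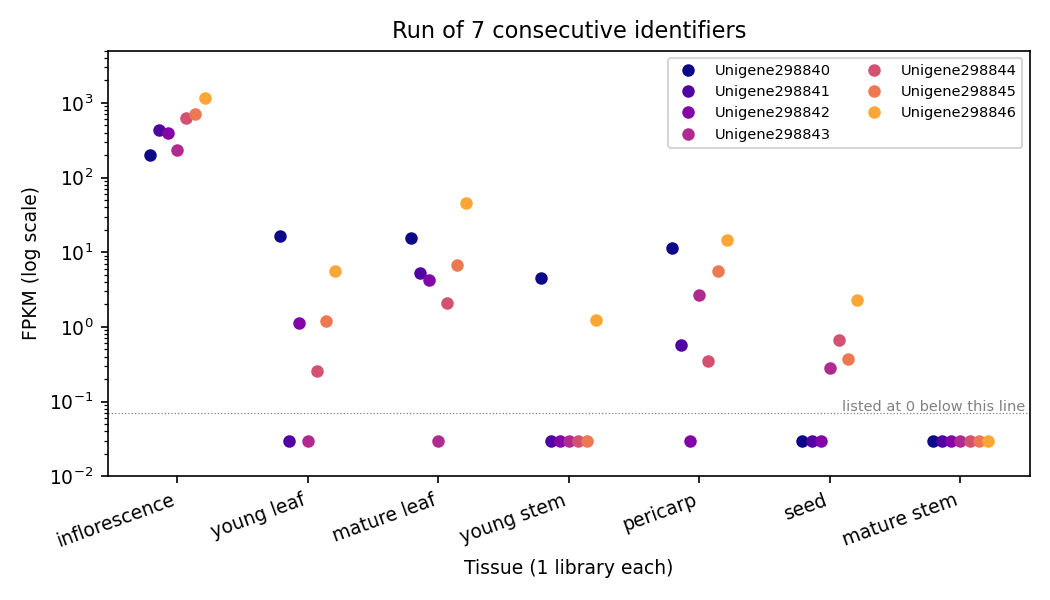
FPKM on a log axis of Unigene298840 to Unigene298846 in 7 tissues (1 library each), 1 colour per unigene. All 7 lie between 199.59 and 1158.93 in inflorescence and at or below 45.95 elsewhere, and symbols under the dotted line are listed at 0.

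The same rule applied to seed and to pericarp gave sets of other shape, which are described without a test. The 200 inflorescence-preferred unigenes held 5.94% of their tissue's summed FPKM, the 200 seed-preferred ones 10.2% of that of seed and the 200 pericarp-preferred ones 3.56% of that of pericarp. The highest 3 supplied 39.8% of the set in inflorescence, 33.2% in seed and 80.9% in pericarp. The inflorescence set had a median of 83.35 FPKM, against 105 in seed and 12.7 in pericarp. All 5 other tissues were at 0 for 75 inflorescence-preferred, 33 seed-preferred and 137 pericarp-preferred unigenes, and the median finite ratio was 31.9, 33.8 and 19.6 in that order. The sets reached down to 42.41 FPKM in inflorescence, 34.32 in seed and 9.15 in pericarp. A lower FPKM leaves a 10% trace closer to the detection limit. The part of level and of depth in these counts was not tested. In mature stem, 162 of the inflorescence set were at 0, with 194 of the seed set and 173 of the pericarp set. Mature stem reached 10% of the preferred tissue for 0 inflorescence-preferred and 0 seed-preferred unigenes, and for 16 pericarp-preferred ones. The comparison with pericarp depends on the limit: at 5% the inflorescence share was 12.8 times the pericarp share, in place of 1.67 times.

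**Figure D5:**
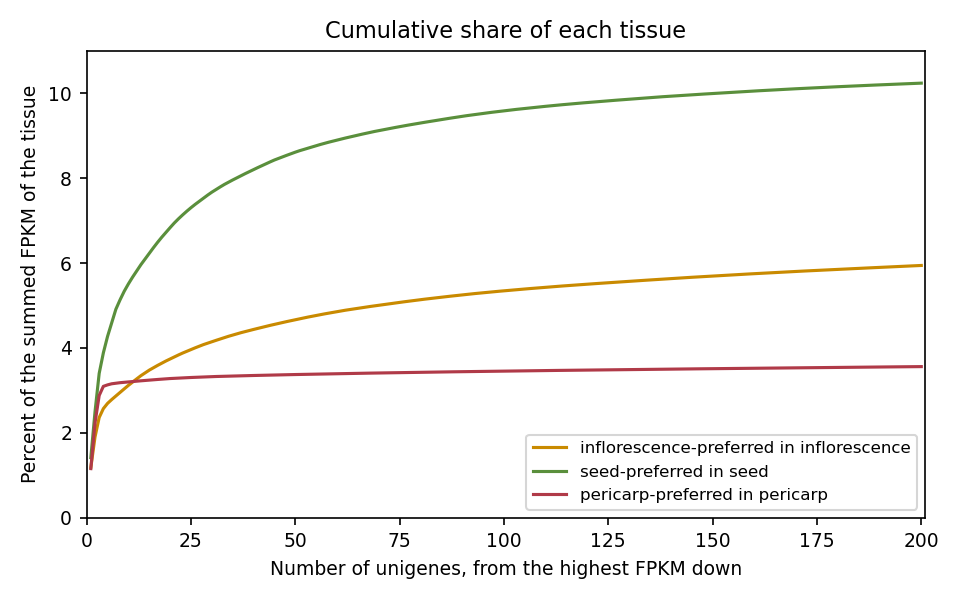
Cumulative share (percent) of the summed FPKM of inflorescence, seed and pericarp held by the 200 unigenes that each tissue preferred, added from the highest FPKM down. The inflorescence curve ends at 5.94%, the seed curve at 10.2% and the pericarp curve at 3.56%, and the pericarp curve is nearly flat after its highest 3.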

How the data were processed

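RNA-seq of 7 tissues was used, with 1 library per tissue and groups taken from the tissue labels. According to the methods of the study, the authors cleaned the reads with Trimmomatic and assembled them *de novo*. They joined the assemblies of several assemblers, removed redundancy with CD-HIT-EST, mapped each tissue with Bowtie 2.0 and estimated expression with RSEM. The deposited values are FPKM, made by the authors and scaled by unigene length and mapped reads, so they hold no read counts. The tables of the 7 tissues held the same values as the table of the whole series (0 values differed).

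The rule of the opening was applied to that table, with ties ordered by identifier. The members and lists were chosen with earlier results of these data known. Enzyme lists were matched by identifier only. Relative depth was read from unigenes above 0 in inflorescence and only 1 other library, as the most frequent ratio in bins of 0.04 on the log2 scale. The modal bin held between 11.5% and 21.9% of these unigenes for the tissues of the rule.

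Named unigenes are the 12 highest, the 5 steepest and 5 least steep, the 5 just outside the limit, those on either side of the last rank, the 5 highest in mature stem, the highest for each second tissue and among those at 0 in all 5, members on an enzyme list and up to 5 passing unigenes of each list. Exceptions are stated. Alternatives covered the limit, scaling, pseudocount, filters, number of members and libraries in the rule. The 3 highest unigenes were left out, and runs of identifiers counted once, as alternatives chosen after seeing the data. The scripts were tested on simulated data. Python 3.11.15, numpy 2.4.6, pandas 2.3.3 and matplotlib 3.10.9 were used.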

Additional observations from a re-analysis of the deposited data

How the results depend on the processing

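A value with no replicates and no counts has no spread, so it was taken as moved when it changed by more than 1.5 times. Of the summary values, 76 stayed within this factor. The median steepness of 181 was 30.1 at a limit of 20%, 105 without the young stem library in the rule, 81.2 over the top 100, and 44.8 and 12.9 with pseudocounts of 1 and 5. At a limit of 5% and over the top 400 it could not be formed, since more than 50% of the unigenes were at 0 in the other tissues. The 9182 passing unigenes were 970 at an inflorescence FPKM of at least 10, the 6 unigenes on enzyme lists were 17 when every passing unigene was counted, and the share of 5.94% was 3.58% without the highest 3. Of the second tissue counts, young stem moved to 14 at a limit of 5% (22 as reported), young leaf to 44 without young stem (24 as reported), and pericarp, reported as 14, to 22 at 20%, 25 without mature leaf, 24 without seed and 9 at an FPKM of at least 1. The inflorescence share over the pericarp share, reported as 1.67, was 12.8 at 5%. The 200 kept 161 unigenes at a limit of 5%, 148 at 20%, 197 with libraries of equal sum and 191 with median-of-ratios scaling. Among 26 named unigenes with a finite steepness, 22 of 78 values with a pseudocount and 12 of 124 values with 1 library left out of the rule moved, and none did under either scaling. The scaling by median of ratios shifted inflorescence against the other 5 tissues of the rule by 0.01 to 0.44 on the log2 scale, most against mature leaf. No paired analysis was possible because each tissue has 1 library.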
